A study of Arabidopsis thaliana with 12 samples.

Results

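The 9 genes described here encode the proteins of the major light-harvesting complex of photosystem II (LHCII) in Arabidopsis thaliana. They were taken by locus code, a rule that holds no measured value, although the set was chosen with earlier results of these data known: 5 copies of LHCB1 (AT1G29920, AT1G29910, AT1G29930, AT2G34430 and AT2G34420), 3 copies of LHCB2 (AT2G05100, AT2G05070 and AT3G27690) and the single LHCB3 gene (AT5G54270). The copies are named LHCB1.1 to LHCB1.5 and LHCB2.1 to LHCB2.3 in that order, and the deposited tables list the LHCB1 copies as CAB2, CAB3, CAB1, LHB1B1 and LHB1B2. RNA of all 9 genes was lowest in white leaves of the mutant studied, from 2.96-fold below wild type for LHCB1.3 to 29.6-fold below it for LHCB2.3 (edgeR, tests below). All 9 were among the 25169 genes of the deposited tables, and all 9 were among the 19424 genes that passed the low-count filter and were tested. The study compared rosette leaves of 2 genotypes. One group of 3 libraries came from the wild type, Col-0, and the other 3 groups, also of 3 libraries, came from the mutant melinoe, whose FMN/FHY gene (At4g21470) was altered with ethyl methanesulfonate (EMS), and whose leaves were taken as green, green-white or white. FMN/FHY is a bifunctional enzyme that makes and breaks down flavin mononucleotide. The series text names the mutant leaf stages green, pale green and chlorotic, whereas the sample labels name them green, green-white and white, and the label names are used below. All plants had the same growth conditions in the labels, on sucrose medium and then in soil under long days, and no leaf age is stated in the labels. The mutant is 1 EMS line, and whether it was crossed back or rescued by the wild-type gene was not stated in the labels.

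LHCII is a trimer of LHCB proteins that binds chlorophyll a and chlorophyll b and passes the absorbed energy to photosystem II. The LHCB1 and LHCB2 proteins make up most trimers, and both are phosphorylated by the STN7 kinase when part of the antenna moves to photosystem I, a change known as a state transition. LHCB3 lacks that phosphorylation site and belongs to trimers bound at a set position next to the photosystem II core. All of these genes sit in the nucleus, are transcribed in the light in chloroplast-containing leaf cells, and depend on the transcription factors GLK1 and GLK2 for full expression.

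Each library held 25795702 to 26760055 estimated counts, and the 9 genes alone gave 7.95% ± 0.14 of all counts in wild type (SD, n = 3 here and below). Their share was 7.67% ± 0.23 in green leaves, 3.69% ± 0.074 in green-white leaves and 2.11% ± 0.040 in white leaves. FMN/FHY RNA lay between 21.4 and 25.2 CPM (counts scaled to library totals that were adjusted by TMM factors) in all 12 libraries, so the level of the mutated gene does not check the genotype labels. The 3 libraries of a group differed by more than counting noise, by 1.57 to 3.86 chi-square units per gene over the 12 pairs. The labels call the 3 libraries of a group biological replicates without saying which plants were pooled, and the common biological coefficient of variation was low at 0.0272. TMM factors (a trimmed mean over genes of the ratios between libraries) tracked the groups: they were 0.903 to 0.929 for wild type and green leaves, and 1.08 to 1.12 for the paler classes.

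The genes lie in 5 places of the genome, and coordinates are given on the RefSeq assembly TAIR10.1. LHCB1.2 (chr1:10472280-10473502), LHCB1.1 (chr1:10474656-10475969) and LHCB1.3 (chr1:10477885-10479114) follow each other with no gene between them, the first 2 on the minus strand and LHCB1.3 on the plus strand. LHCB1.5 (chr2:14522524-14523568, minus strand) and LHCB1.4 (chr2:14524607-14525918, plus strand) stand back to back, with 1038 bases between their starts. LHCB2.2 (chr2:1799234-1800472) and LHCB2.1 (chr2:1822990-1824480) are both on the minus strand, 22517 bases apart with 5 genes between them. LHCB2.3 (chr3:10255906-10257489) and LHCB3 (chr5:22038165-22039568) stand alone on the plus strand. None of the 5 LHCB1 genes has an intron, the representative transcripts of the LHCB2 genes have 1, and that of LHCB3 has 2.

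The copies of a type are close to identical in their coding sequence, which decides how well reads can be assigned to one of them. Coding sequences of the 5 LHCB1 copies were 86.8% to 96.4% identical in pairs, those of the 3 LHCB2 copies 84.5% to 96.6%, and LHCB3 was 65.1% to 67.9% identical to LHCB1 and 66.5% to 67.7% to LHCB2. The first 60 coding bases show the likeness. They are printed from the start codon for the LHCB1 copies whose levels changed least (LHCB1.3) and most (LHCB1.4), for the neighbour of LHCB1.4, and for all 3 LHCB2 copies. Capitals mark bases that differ from LHCB1.3 among the LHCB1 copies and from LHCB2.1 among the LHCB2 copies.
LHCB1.3: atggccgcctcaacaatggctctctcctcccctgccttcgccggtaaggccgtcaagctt
LHCB1.4: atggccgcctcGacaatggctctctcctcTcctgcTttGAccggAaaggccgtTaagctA
LHCB1.5: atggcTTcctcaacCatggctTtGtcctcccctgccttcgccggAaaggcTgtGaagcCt
LHCB2.1: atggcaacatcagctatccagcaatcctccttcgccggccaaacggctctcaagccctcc
LHCB2.2: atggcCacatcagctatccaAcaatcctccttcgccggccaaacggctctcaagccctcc
LHCB2.3: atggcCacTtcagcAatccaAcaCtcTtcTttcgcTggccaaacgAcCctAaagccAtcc
LHCB1.4 differed from LHCB1.3 at 8 of these 60 bases, and LHCB1.5 at 9. LHCB2.2 differed from LHCB2.1 at 2 bases and LHCB2.3 at 12.

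Over whole annotated transcripts, stretches of 100 bases that occur in no other gene made up 95.6% of LHCB1.1, 98.5% of LHCB1.2, 96.7% of LHCB1.3, 96.7% of LHCB1.4 and 95.8% of LHCB1.5. They made up 90.1% of LHCB2.1 and 87.6% of LHCB2.2, and the whole of LHCB2.3 and LHCB3. With stretches of 50 bases the parts were smaller, from 79.5% (LHCB1.1) to 89.4% (LHCB1.2) among LHCB1 copies. They were then 77.3% for LHCB2.1 and 71.8% for LHCB2.2, and still the whole of LHCB2.3 and LHCB3. In the deposited tables LHCB3 had whole-number counts (within 1e-06) in 12 of 12 libraries and LHCB2.3 in 2 of 12, with the rest at most 0.17 from a whole number, whereas the other 7 genes carried fractions in every library and reached distances of 0.45 to 0.49, as estimated counts of genes with like copies do. Values of single LHCB1 copies and of LHCB2.1 and LHCB2.2 are therefore uncertain to the extent that this division was wrong, and the sum over each type is given beside them.

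A few members also share bases with a gene on the opposite strand. LHCB1.3 overlaps NRPA2 (AT1G29940) by 108 bases, LHCB1.5 overlaps RWA3 (AT2G34410) by 99, LHCB2.3 overlaps AT3G27700 by 595 and LHCB3 overlaps ATM2 (AT5G54280) by 186. These 4 neighbours had between 11.7 and 63.5 CPM in every library. LHCB1.5 is in addition covered over its whole length by an annotated long noncoding RNA on the opposite strand, AT2G08665, which was not analysed here. The libraries keep the strand, but the strand setting of the counting is not given in the sources used here, so reads of such pairs may have been counted together.

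In wild-type leaves the LHCB1 genes gave most of the LHCII messenger RNA. Levels between genes are compared in deposited TPM, which divides counts by gene length and then by the library's sum of such values. The values are the authors' means of a group, and the spread beside them is that of the CPM values over the 3 libraries. LHCB1.3 stood first with 30419 TPM and LHCB1.5 second with 23865 TPM. LHCB3 (8813 TPM), LHCB1.2 (8581) and LHCB1.1 (8032) followed. LHCB3 exceeded LHCB1.2 by 2.71%, which is about the relative SD of their CPM over libraries (2.46% and 3.79%), so their order is not settled. LHCB1.4 came next with 7044 TPM. LHCB2.2 (4333 TPM) and LHCB2.1 (4262) differed by 1.65%, again within their relative SD (3.55% and 2.76%), and LHCB2.3 was lowest with 1506 TPM. Summed by type, the authors' means gave 77941 TPM for LHCB1 and 10101 for LHCB2.

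The order of the genes changed from one leaf class to the next below the first 2 ranks. LHCB1.3 and LHCB1.5 held ranks 1 and 2 in all 4 groups, with authors' means of 14050 and 7641 TPM in white leaves. LHCB1.1 moved from rank 5 in wild type to rank 3 in each mutant class, with 2127 TPM in white leaves, although in green leaves it exceeded LHCB1.2 by 2.72%, less than its relative SD (4.04%). LHCB1.4 went from rank 6 in wild type to rank 8 in white leaves, where it had 348 TPM. LHCB2.1 took the opposite course from rank 8 to rank 6, with 1163 TPM in white leaves, and LHCB2.3 was last in every group with 69.6 TPM there. LHCB2.1 and LHCB1.4 in green-white leaves (1.11% apart) and LHCB1.2 and LHCB3 in white leaves (2.39% apart) were neighbours that their spread does not separate clearly.

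**Figure D1:**
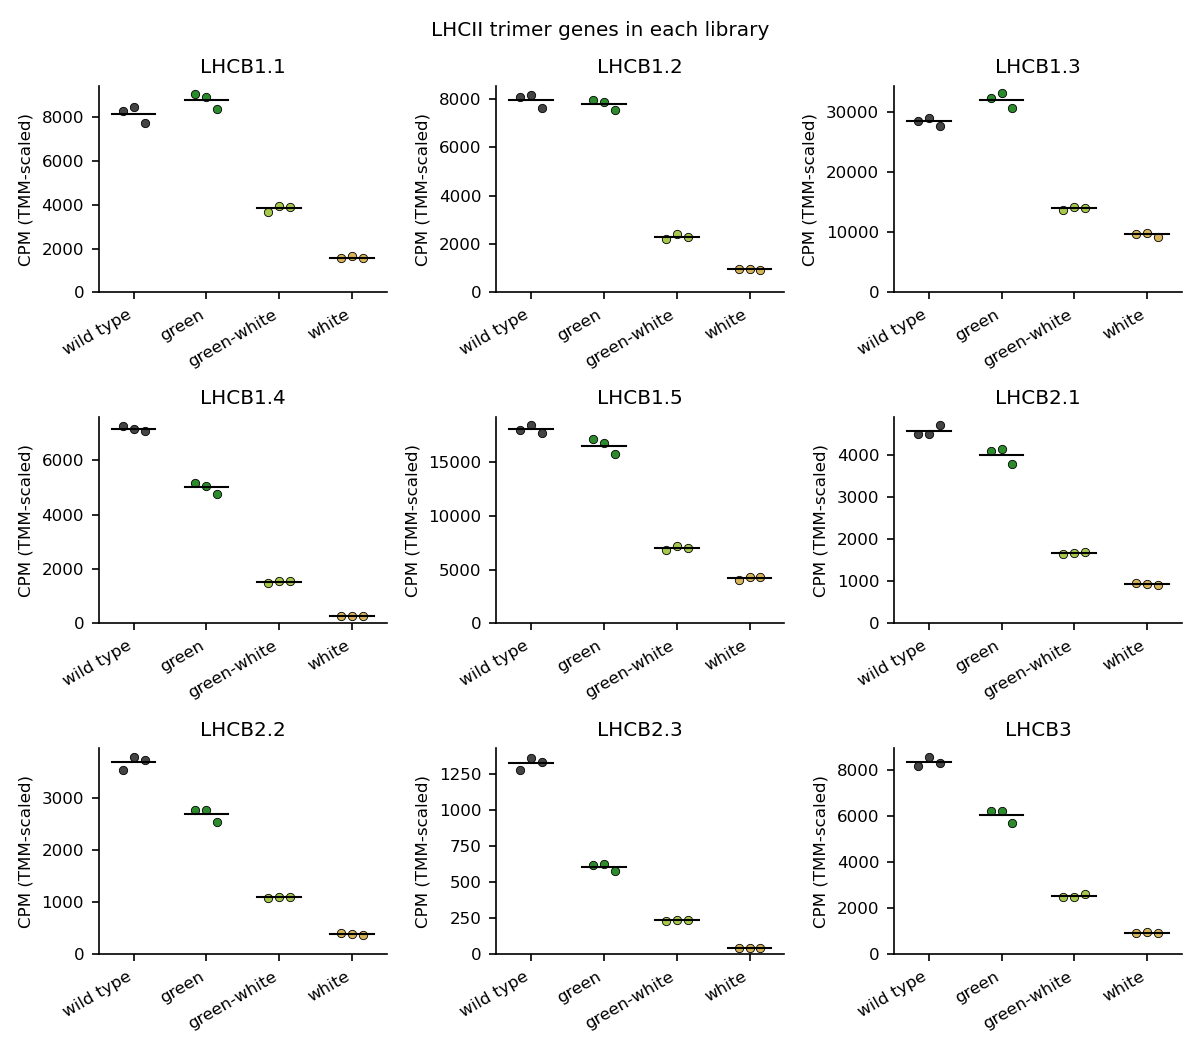
CPM (scaled by TMM factors) of each of the 9 genes on a linear axis from 0, with 1 point per library and a bar at the mean of the 3 libraries of a group. All 9 genes are lowest in white leaves and second lowest in green-white leaves, and LHCB1.4 and LHCB2.3 come closest to 0 in white leaves.

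Green leaves of the mutant differed from wild type by member rather than by a common change. LHCB1.3 rose slightly, LHCB1.1 rose by less, the summed LHCB1 RNA did not pass the test, and all 3 LHCB2 genes and LHCB3 fell. In all, 2 members were called higher and 6 lower at an edgeR quasi-likelihood Benjamini-Hochberg adjusted p under 0.05, and 1 was not called. Over all genes tested, 28.7% were called higher and 29.6% lower in this comparison, so being called is common here and the sizes carry the description. Since whole leaves were extracted, fewer cells of a type and less RNA per cell cannot be told apart in this or any later comparison.

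LHCB1.3, the most abundant member, had 28586, 29051 and 27719 CPM in the wild-type libraries A, B and C and 32394, 33138 and 30714 CPM in the green libraries. All green libraries were above all wild-type libraries. The log2 fold change was 0.17 ± 0.027 (SE, 3 libraries a group here and below; edgeR adjusted p = 2.22e-06). LHCB1.1 gave 0.10 ± 0.033 (edgeR adjusted p = 0.00737), with 7733 to 8477 CPM in wild type and 8379 to 9054 in green leaves, ranges that overlap, and its call ended with upper-quartile scaling (adjusted p = 0.131). LHCB1.2 had 7622 to 8181 CPM in wild type and 7567 to 7975 in green leaves, a log2 difference of -0.03 ± 0.030 that did not pass (edgeR adjusted p = 0.405) but did with upper-quartile scaling (-0.07, adjusted p = 0.0376).

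LHCB1.4 was the LHCB1 copy that fell furthest in green leaves. Its wild-type libraries had 7238, 7140 and 7061 CPM and its green libraries 5164, 5065 and 4757 CPM. The groups did not overlap, and the log2 fold change was -0.52 ± 0.027 (edgeR adjusted p = 6.27e-17). LHCB1.5, its neighbour on the chromosome, fell by 0.13 ± 0.029 on the log2 scale (edgeR adjusted p = 0.000296), and without green library C that call ended (adjusted p = 0.0504). Green C had the lowest level of the 3 green libraries for each of the 9 genes.

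Among the other types LHCB2.3 stood out. It had 1276, 1362 and 1329 CPM in wild type and 617, 623 and 576 in green leaves, a log2 fold change of -1.13 ± 0.031 (edgeR adjusted p = 2.28e-24), the lowest of the 9. Every green library was below every wild-type library. LHCB2.2 fell by 0.45 ± 0.032 (edgeR adjusted p = 8.47e-14) and LHCB2.1 by 0.19 ± 0.029 (edgeR adjusted p = 1.31e-06). LHCB3, whose counts are whole numbers, had 8166, 8569 and 8304 CPM in wild type against 6234, 6237 and 5715 in green leaves, and fell by 0.46 ± 0.030 (edgeR adjusted p = 8.68e-15).

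By type, the summed LHCB2 RNA fell from 9590 ± 236 to 7315 ± 361 CPM (log2 fold change -0.39 ± 0.028, edgeR adjusted p = 1.77e-13). The LHCB1 sum was 69783 ± 1752 CPM in wild type and 70186 ± 2656 in green leaves (0.01 ± 0.026, edgeR adjusted p = 0.799). It was called higher without green library C (0.07, adjusted p = 0.00659) and turned negative, uncalled, with upper-quartile scaling (-0.04, adjusted p = 0.252). The sum of all 9 genes gave -0.07 ± 0.025 (edgeR adjusted p = 0.0161). That small difference lost its call without any one of the wild-type or green libraries, with adjusted p from 0.0806 to 0.878, and with DESeq2 (adjusted p = 0.0755).

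**Figure D2:**
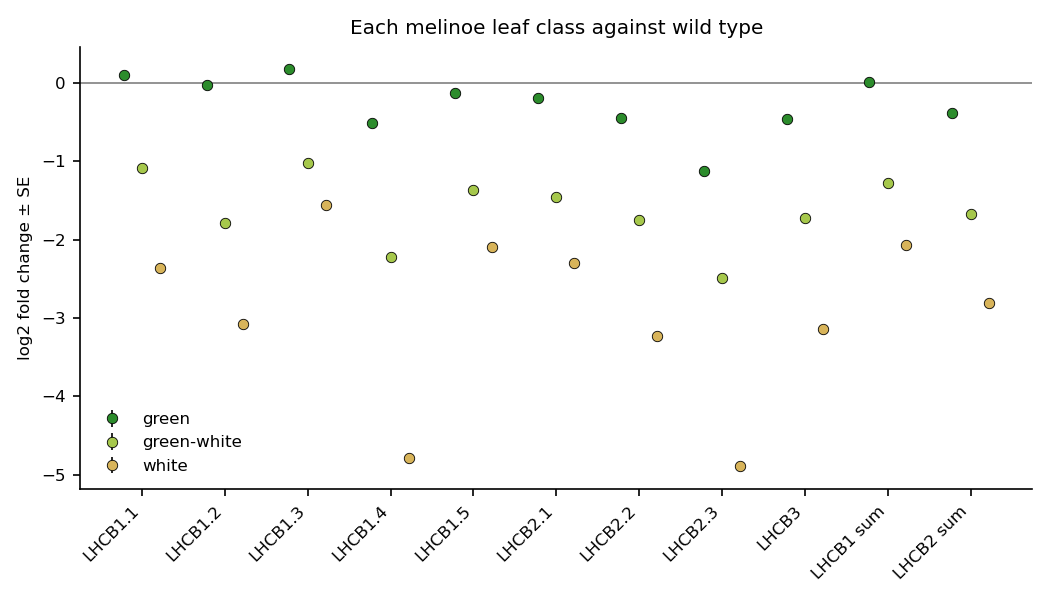
Log2 fold change over wild type of each gene and of the LHCB1 and LHCB2 sums in green, green-white and white leaves, with SE bars that are mostly smaller than the points. Green points lie between -1.13 and 0.17, and white points reach -4.79 for LHCB1.4 and -4.89 for LHCB2.3.

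Green-white and white leaves had less RNA of all 9 genes than wild type. In green-white leaves 9 of 9 members were called lower, beside 38.8% of all genes tested called lower and 34.1% called higher. In white leaves 9 of 9 were called lower, beside 40.0% of all genes called lower and 39.9% higher. The median log2 fold change of the members was -1.73 in green-white and -3.07 in white leaves, against -0.04 and -0.00143 over all genes tested. The sum of all 9 genes, in which abundant copies weigh most, gave -1.36 ± 0.025 and -2.21 ± 0.026. The largest edgeR adjusted p among the 9 was 1.75e-23 in green-white and 4.72e-30 in white leaves.

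LHCB1.4 had 1495, 1550 and 1547 CPM in the green-white libraries and 254, 264 and 258 CPM in the white libraries, from 7147 ± 88.8 in wild type. That is a log2 fold change of -2.22 ± 0.029 in green-white (edgeR adjusted p = 4.31e-33) and -4.79 ± 0.032 in white leaves (edgeR adjusted p = 6.76e-41), a level 27.6-fold lower than in wild type in the latter. LHCB1.5, which shares the region between their starts, had 4071, 4294 and 4292 CPM in white leaves against 18051 ± 374 in wild type. It was 4.28-fold lower (log2 fold change -2.10 ± 0.030, edgeR adjusted p = 1.3e-32).

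The 3 LHCB1 copies on chromosome 1 also differed among themselves. LHCB1.3 had 13702, 14231 and 14073 CPM in green-white and 9702, 9888 and 9260 CPM in white leaves. It was 2.03-fold lower in green-white and 2.96-fold lower in white leaves than in wild type, the smallest falls of the 9 genes in both comparisons. LHCB1.2 had log2 fold changes of -1.79 ± 0.031 in green-white and -3.07 ± 0.033 in white leaves, and LHCB1.1, 1153 bases from it, -1.09 ± 0.033 and -2.37 ± 0.035.

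LHCB2.3 fell furthest of all members. It had 229, 237 and 238 CPM in green-white and 44.2, 43.9 and 46.0 CPM in white leaves, which is 5.63-fold and 29.6-fold lower than wild type (log2 fold changes -2.49 ± 0.033 and -4.89 ± 0.038, edgeR adjusted p = 6.7e-33 and 3.95e-39). The largest count behind a white library was 1324 reads, so this low level is still measured on many reads. However, AT3G27700, which overlaps 37.6% of LHCB2.3 on the opposite strand, had 21.0 to 31.2 CPM over the 12 libraries. If reads of this pair were counted together, part of the white level of LHCB2.3 would not be its own, which was not tested. LHCB2.1 in white leaves had 950, 926 and 918 CPM and was 4.92-fold lower than wild type, and LHCB2.2 had 404, 396 and 379 CPM and was 9.39-fold lower.

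LHCB3 had 2469, 2492 and 2609 CPM in green-white and 941, 960 and 931 CPM in white leaves. Its log2 fold changes over wild type were -1.73 ± 0.030 and -3.14 ± 0.032 (edgeR adjusted p = 1.03e-29 and 3.69e-36). Summed by type, LHCB1 had log2 fold changes of -1.28 ± 0.026 in green-white and -2.07 ± 0.027 in white leaves, and LHCB2 of -1.68 ± 0.029 and -2.81 ± 0.030. LHCB3 was 8.84-fold lower in white leaves.

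Between neighbouring leaf classes the loss took different forms. From green to green-white all 9 genes fell, from -1.20 ± 0.034 for LHCB1.1 to -1.76 ± 0.031 for LHCB1.2 on the log2 scale, a range of 0.56 over the members. LHCB1.4 (-1.71 ± 0.028) was the other low one, and the other 7 lay between -1.20 and -1.37. In this comparison 29.9% of all genes tested were called lower and 29.6% higher.

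From green-white to white leaves the range over members was 2.02. The smallest falls were those of LHCB1.3 (-0.54 ± 0.027), LHCB1.5 (-0.74 ± 0.029) and LHCB2.1 (-0.85 ± 0.030). LHCB1.1 (-1.28 ± 0.034), LHCB1.2 (-1.29 ± 0.031), LHCB3 (-1.42 ± 0.030) and LHCB2.2 (-1.48 ± 0.033) were in the middle. LHCB2.3 (-2.39 ± 0.038) and LHCB1.4 (-2.56 ± 0.030) fell furthest. All 9 were called lower, beside 30.8% of all genes called lower and 33.5% higher. The LHCB1 sum changed by -0.79 ± 0.026 and the LHCB2 sum by -1.13 ± 0.029 at this step, although the 2 sums had differed little from green to green-white, at -1.29 ± 0.026 and -1.28 ± 0.029.

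Against green leaves, white leaves had 19.3-fold less LHCB1.4, 13.5-fold less LHCB2.3, 6.42-fold less LHCB3 and 3.34-fold less LHCB1.3 RNA. All 9 genes were called lower in white than in green leaves, beside 36.3% of all genes tested called lower and 36.3% called higher. These comparisons share their libraries with those above and are not independent of them.

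**Figure D3:**
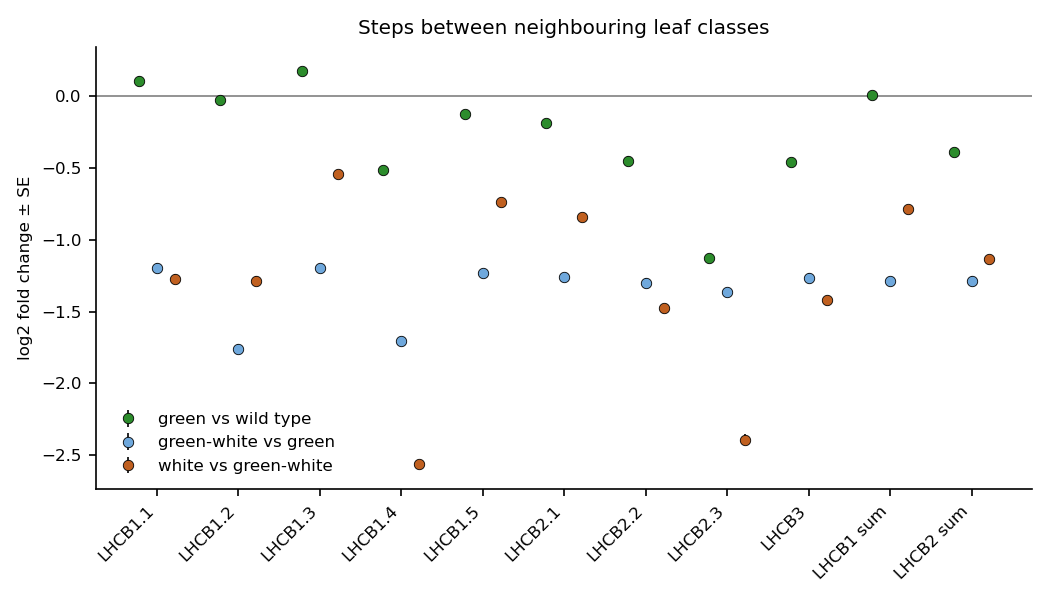
Log2 fold change ± SE of each gene and of the 2 type sums at 3 steps, green over wild type, green-white over green and white over green-white. The middle step is similar for most genes (-1.20 to -1.37), with LHCB1.4 (-1.71) and LHCB1.2 (-1.76) lower. The last step runs from -0.54 for LHCB1.3 to -2.56 for LHCB1.4.

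The makeup of the LHCB1 and LHCB2 messenger RNA therefore shifted, which can be followed by ratios within each library that do not depend on the scaling between libraries. LHCB1.3 made up 40.8% ± 0.058 of LHCB1 counts in wild type and 57.8% ± 0.92 in white leaves, with 45.7% ± 0.51 in green and 48.8% ± 0.33 in green-white leaves between them. LHCB1.4 went the other way, from 10.2% ± 0.21 through 7.12% ± 0.076 and 5.33% ± 0.050 to 1.56% ± 0.025. Both shares had separate ranges in all 4 groups. Both gave p = 6.49e-05 in the exact permutation test over the 12 libraries, which tests for any difference among the 4 groups. That is the smallest p that its assignments can give (adjusted p = 0.000108 over the 10 ratios and shares tested).

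The other 3 LHCB1 copies did not follow a single course. LHCB1.2 took 11.4% ± 0.17, 11.1% ± 0.15, 8.04% ± 0.17 and 5.70% ± 0.10 of LHCB1 counts in wild-type, green, green-white and white leaves (exact permutation adjusted p = 0.000186). LHCB1.1 was highest in green-white leaves, at 13.4% ± 0.19 against 11.7% ± 0.27 in wild type and 9.52% ± 0.15 in white leaves (exact permutation adjusted p = 0.000108). LHCB1.5 stayed between 23.4% and 26.3% in all 12 libraries (exact permutation adjusted p = 0.00175). Its share was lowest in green leaves (23.5% ± 0.28), where its range lay below that of wild type. Its shares in white (25.4% ± 0.88) and wild-type leaves (25.9% ± 0.27) had overlapping ranges, with a difference of -0.49 percentage points. An exact permutation test of 3 against 3 libraries cannot go below p = 0.1, so single pairs of groups cannot pass in this design.

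Among LHCB2 copies, LHCB2.1 rose from 47.8% ± 0.98 in wild type to 68.0% ± 0.28 in white leaves, with 54.9% ± 0.056 in green and 55.7% ± 0.20 in green-white leaves. LHCB2.3 fell from 13.8% ± 0.29 to 8.27% ± 0.064, 7.82% ± 0.045 and 3.27% ± 0.14, and LHCB2.2 from 38.5% ± 0.71 to 36.8% ± 0.11, 36.5% ± 0.16 and 28.7% ± 0.41. All 3 shares gave adjusted p = 0.000108 in the exact permutation test. The drop in the LHCB2.3 share thus came at 2 steps, from wild type to green and from green-white to white, with a change of only 0.45 percentage points between them.

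The ratios between types moved at the same 2 steps. The log2 ratio of LHCB2 to LHCB1 counts was -2.86 ± 0.062 in wild type and -3.60 ± 0.039 in white leaves, and it was -3.26 ± 0.017 in green and -3.26 ± 0.024 in green-white leaves (exact permutation adjusted p = 0.000433). The log2 ratio of LHCB3 to LHCB1 was -3.06 ± 0.037, -3.53 ± 0.017, -3.51 ± 0.048 and -4.14 ± 0.011 (exact permutation adjusted p = 0.000406). The ranges of green and green-white leaves overlapped in both ratios, and their means differed by 0.01 and 0.03. Without the logarithm, LHCB3 counts were 0.120 of LHCB1 counts in wild type and 0.0568 in white leaves.

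**Figure D4:**
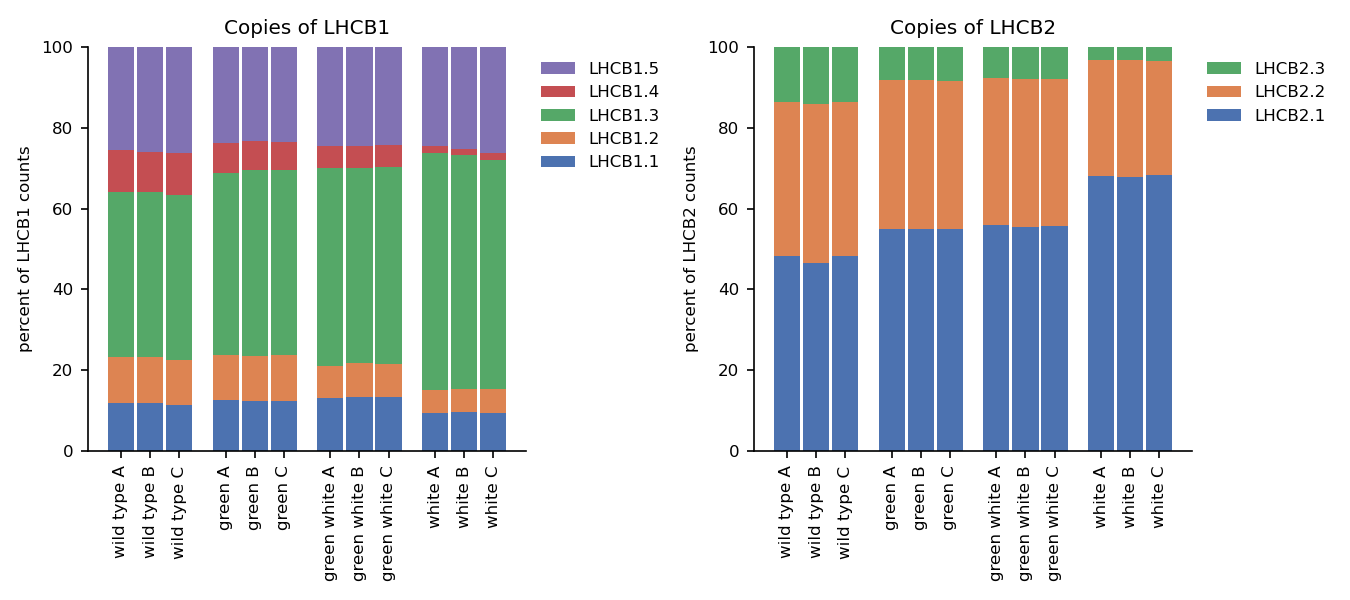
Stacked bars for the 12 libraries of the percentage of LHCB1 counts (left) and LHCB2 counts (right) that came from each copy. LHCB1.3 and LHCB2.1 take a growing part from wild type to white leaves (40.8% to 57.8% and 47.8% to 68.0%), and LHCB1.4 and LHCB2.3 shrink to 1.56% and 3.27%.

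Upstream of the genes the copies are far less alike than in their coding sequence. Identity between the 250 bases before the annotated gene starts was 64.4% for LHCB2.1 and LHCB2.2 and 45.6% to 55.8% for pairs of LHCB1 copies. LHCB2.3 gave 47.2% with LHCB2.1 and 47.6% with LHCB2.2. Pairs from different types gave 45.8% to 51.65% over the same windows, so most pairs within a type were no more alike. These windows are printed, in the direction of transcription, for the back-to-back pair LHCB1.4 and LHCB1.5 and for the LHCB2 copies with the smallest and the largest fall. Capitals mark exact matches to one of 7 motifs searched on both strands, named after the sequences.
LHCB1.4: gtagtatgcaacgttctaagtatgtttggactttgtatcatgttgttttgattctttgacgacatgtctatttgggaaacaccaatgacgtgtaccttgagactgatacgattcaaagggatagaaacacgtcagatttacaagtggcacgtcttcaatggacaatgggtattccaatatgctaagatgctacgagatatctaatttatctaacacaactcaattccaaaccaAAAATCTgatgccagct
LHCB1.5: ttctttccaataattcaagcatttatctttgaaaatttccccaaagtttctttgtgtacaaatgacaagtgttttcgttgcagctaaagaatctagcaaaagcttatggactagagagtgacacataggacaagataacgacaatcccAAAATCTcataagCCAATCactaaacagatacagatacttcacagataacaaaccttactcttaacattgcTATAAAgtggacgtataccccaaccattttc
LHCB2.1: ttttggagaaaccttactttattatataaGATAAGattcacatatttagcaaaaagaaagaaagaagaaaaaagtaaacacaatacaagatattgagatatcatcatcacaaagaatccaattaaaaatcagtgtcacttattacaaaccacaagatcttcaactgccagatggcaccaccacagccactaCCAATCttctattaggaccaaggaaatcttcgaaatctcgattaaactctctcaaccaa
LHCB2.3: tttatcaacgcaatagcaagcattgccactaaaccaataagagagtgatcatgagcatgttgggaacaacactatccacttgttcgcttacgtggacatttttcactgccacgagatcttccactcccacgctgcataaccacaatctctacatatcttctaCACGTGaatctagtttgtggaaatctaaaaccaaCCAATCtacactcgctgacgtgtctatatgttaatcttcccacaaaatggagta
They lie at chr2:14524357-14524606 (plus strand), chr2:14523569-14523818 (minus strand), chr2:1824481-1824730 (minus strand) and chr3:10255656-10255905 (plus strand). The representative LHCB2.3 transcript starts 35 bases downstream of the annotated gene start.

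The motif CACGTG, the G-box bound by bZIP and bHLH factors such as HY5 and the PIFs, was in the LHCB2.3 window, 88 to 83 bases before the start, in none of the other 8 members, and in 6.49% of 27443 windows of all genes. AAAATCT, a shortened form of the site known for the clock factor CCA1, was in LHCB1.1, LHCB1.4 and LHCB1.5 and in 16.5% of all windows. The base before the match is a in LHCB1.4 but c in LHCB1.5, so the full form AAAAATCT is absent from the LHCB1.5 window. CCAATC was in LHCB1.3, LHCB1.5 and the 3 LHCB2 genes and in 10.2% of all windows. In LHCB2.1, LHCB2.2 and LHCB2.3 its far end lay 59, 53 and 54 bases before the annotated gene start. These distances are alike only from gene starts, since the representative LHCB2.3 transcript starts 35 bases downstream of its gene start.

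The I-box GATAAG was in LHCB2.1 only among members, and in 12.3% of all windows. TATAAA was in LHCB1.5 and LHCB3 and in 47.4% of all windows. The second CCA1 form, AACAATCT, and the evening element, AAAATATCT, were in no member window and in 1.83% and 2.36% of all windows. LHCB1.4 and LHCB2.3, the members that fell furthest, had none of these motifs in common. AAAATCT was shared by LHCB1.4 and its less affected neighbour LHCB1.5, and CCAATC by LHCB2.3 and the less affected LHCB2.1. Whether any of these motifs bears on the sizes of the falls was not tested.

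The remaining antenna proteins are minor LHCB proteins, which link trimers to the photosystem II core, and the LHCA proteins of photosystem I. All 5 minor antenna genes fell in all 3 mutant leaf classes against wild type, with medians of -0.26, -1.38 and -2.30 on the log2 scale. The medians of the 9 LHCII genes were -0.19, -1.73 and -3.07, with each copy weighing the same. Their summed RNA, in which abundant copies weigh most, gave -0.07, -1.36 and -2.21, which is near the minor antenna medians in the paler classes. LHCB4.3 fell furthest in green leaves (-0.79, edgeR adjusted p = 6.04e-15) and in white leaves (-3.27, edgeR adjusted p = 1.55e-28), and LHCB4.2 in green-white leaves (-1.64, edgeR adjusted p = 1.4e-29). Counts of called genes in this and the following lists stand beside 28.7% of all genes tested called higher and 29.6% lower in green leaves, 34.1% and 38.8% in green-white leaves, and 39.9% and 40.0% in white leaves. Of 6 LHCA genes, 2 rose (1 with upper-quartile scaling) and 3 fell in green leaves, and all 6 fell in both paler classes. LHCA1 fell most in green (-0.25) and green-white leaves (-1.25) and LHCA2 in white leaves (-1.97), whereas LHCA5, a low-abundance form, moved least in white leaves (-0.26, edgeR adjusted p = 1.17e-08) and rose most in green leaves (0.20, edgeR adjusted p = 3.9e-06).

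Of 7 genes for import, targeting and insertion of LHCII proteins, 1 rose and 2 fell in green leaves, 2 rose and 5 fell in green-white leaves, and 3 rose and 4 fell in white leaves, with medians of -0.02, -0.29 and -0.14 on the log2 scale. In green leaves these counts are no larger a part of the list than the shares called over all genes. With library totals alone as the scaling, 3 rose in green and 2 rather than 5 fell in green-white leaves. The gene for cpSRP43 (AT2G47450), the chaperone that carries LHCB proteins through the stroma, fell most in each class, with log2 fold changes of -0.25, -1.04 and -1.19. TOC33 (AT1G02280), an import receptor of the outer chloroplast envelope, rose most, by 0.17, 0.67 and 1.41.

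The next 4 genes act in phosphorylation of LHCII (STN7 and TAP38) or of the photosystem II core (STN8 and PBCP). Of these, 2 rose and 1 fell in green leaves, all 4 fell in green-white and 3 fell in white leaves. With upper-quartile scaling, however, 2 fell in green leaves, and with library totals alone 1 fell in green-white leaves. For white leaves library totals alone turned the direction, with 3 higher and 0 lower. STN7 (AT1G68830), the state-transition kinase, stayed between group means of 169 CPM (green-white) and 235 CPM (green), with 195 in wild type and 188 in white leaves. It rose by 0.27 in green (edgeR adjusted p = 4.89e-09), fell by 0.21 in green-white (6.01e-07) and did not pass in white leaves (-0.05, edgeR adjusted p = 0.126). STN8 had the largest fall in green and in green-white leaves (-0.25 and -0.32), and TAP38, the phosphatase that reverses STN7, had the largest in white leaves (-0.34).

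Chlorophyll b is needed for stable LHCII, and of 8 genes for its cycle and for the last steps of chlorophyll synthesis 6 fell in each mutant class and 2 rose. The chlorophyllide a oxygenase gene CAO (AT1G44446), which makes chlorophyll b, had log2 fold changes of -0.15 (edgeR adjusted p = 2.67e-05), -0.95 and -1.14 from the greenest to the palest class. PORB, a light-dependent protochlorophyllide oxidoreductase, had the largest fall in green-white (-1.54) and white leaves (-2.02). NYC1, a chlorophyll b reductase that starts the breakdown of chlorophyll b, had the largest fall in green leaves (-0.68, edgeR adjusted p = 5.77e-18) but rose by 0.59 in green-white and by 1.22 in white leaves, the largest rise of the list in both. HCAR, which acts in the same direction at the next step, had the largest rise in green leaves (0.14, edgeR adjusted p = 0.0152). With upper-quartile scaling 0 genes of this list were called higher in green leaves, so the call of HCAR ended.

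Of 13 regulators known for LHCB genes 12 were tested, and ABI4 was not analysed here. GLK1 (AT2G20570) had the largest fall in each mutant class, with log2 fold changes of -1.08, -1.91 and -3.63 (edgeR adjusted p = 3.41e-23, 1.72e-29 and 2.09e-35), from 256 CPM in wild type to 121, 68.1 and 20.7 CPM. GLK2 (AT5G44190) gave -0.52, -1.70 and -2.44, from 257 to 179, 79.3 and 47.3 CPM. CGA1, a GATA factor that promotes chloroplast formation, had the largest rise in green (0.98) and green-white leaves (0.63), and HY5, a bZIP activator of light-responsive genes, in white leaves (1.78, edgeR adjusted p = 1.32e-17). CCA1 and LHY, partners in the clock named here after their values were seen, differed from each other. LHY fell in all 3 classes (-0.40, -0.30 and -1.93), whereas CCA1 rose in green (0.23, edgeR adjusted p = 2.18e-06), was not called in green-white (-0.04, edgeR adjusted p = 0.394) and fell in white leaves (-0.38, edgeR adjusted p = 1.4e-10). Counts of regulators that rose and fell were 4 and 7 for green leaves, 3 and 8 for green-white leaves, and 3 and 9 for white leaves. The rises, of 12 genes tested, are near or under the shares called higher over all genes.

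**Figure D5:**
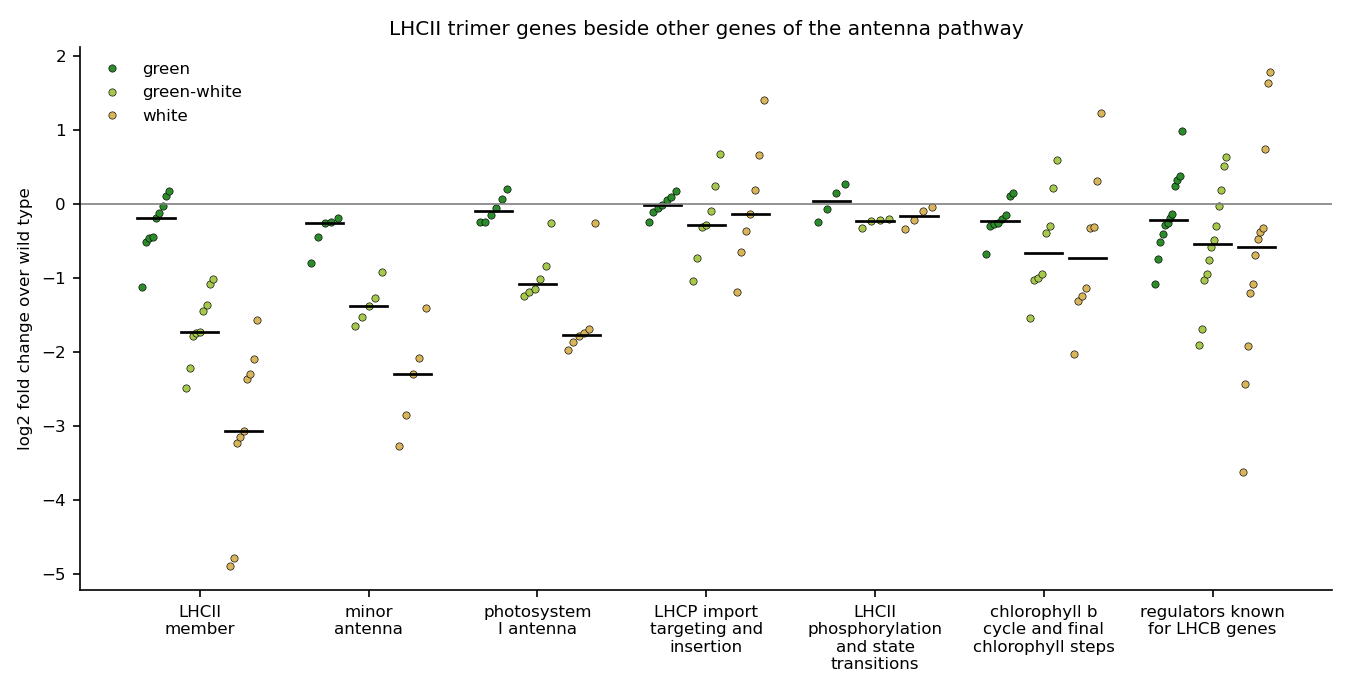
Log2 fold change over wild type of single genes (points) in 7 gene lists for green, green-white and white leaves, with a bar at each list's median. The medians in white leaves are -3.07 for the 9 LHCII genes, -2.30 for the minor antenna, -1.77 for the photosystem I antenna and -0.16 for the phosphorylation genes. The sum of the 9 LHCII genes, which is not drawn, gave -2.21 in white leaves.

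Markers of leaf cell types were read beside these changes. The 5 mesophyll markers, genes of carbon fixation, were summed at 30698 to 31346 CPM in the wild-type libraries and 32103 to 34226 in the green ones, against 20312 to 20733 in green-white and 15434 to 15554 in white leaves, and all 5 were called lower in both paler classes. In green leaves 2 of them were called higher and 2 lower, beside 28.7% and 29.6% of all genes tested. Summed epidermis markers were 993 to 1023 CPM in wild type and, in the order green, green-white and white, 579 to 585, 709 to 715 and 714 to 732 CPM. Summed vascular markers were 625 to 632 CPM in wild type and 568 to 578, 443 to 446 and 269 to 275 CPM in that order. SUC2 and SWEET11 (268 and 265 CPM in wild type) made up most of this sum. XCP1, XCP2 and CESA7, at 14.3 CPM or less in wild type, had log2 fold changes of -1.67, -2.32 and -2.22 in green leaves. From green to green-white leaves these 3 rose by 0.76, 1.17 and 1.63, and the other 3 vascular markers fell. Summed guard cell markers were 55.4 to 56.3 CPM in wild type and 61.9 to 62.8, 41.3 to 42.4 and 48.5 to 50.4 CPM. Members of a list did not all move together. In white leaves 2 guard cell markers rose, among them FAMA (0.36), and 2 fell, among them KAT1 (-1.65), while of the 5 epidermis markers CER1 rose (0.53) and 4 fell. All 6 vascular markers fell in white leaves. Over all genes tested 39.9% were called higher and 40.0% lower in white leaves, so the guard cell counts are near those shares. No mesophyll, epidermis, guard cell or vascular marker was at 0 in any group, and of the 5 root markers, 4 of them listed and summed at no more than 24.2 CPM, at least 3 had under 1 CPM in every group, and 2 were at 0 in wild type and 1 in each mutant class. The part of cell-type makeup in the LHCII changes was not tested.

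Finally, genes were ranked by likeness to the summed level of the 9 LHCII genes, as the root mean square difference of log2 CPM relative to wild type over the 12 libraries, among 13912 genes with a mean of at least 5 CPM. The 5 closest were IPT3 (0.09), AT5G35480 (0.10), PSAE-1 (0.10), LHCB6 (0.11) and BBX16 (0.11). PSAE-1 encodes a subunit of photosystem I, LHCB6 a minor antenna protein, IPT3 an enzyme of cytokinin synthesis and BBX16 a B-box protein. IPT3 had 22.2, 19.5, 7.87 and 4.54 CPM and LHCB6 5239, 4368, 2013 and 1065 CPM in wild-type, green, green-white and white leaves. By the same measure the members themselves ranged from 0.07 for LHCB1.5 and 0.09 for LHCB2.1 to 1.38 for LHCB1.4 and 1.54 for LHCB2.3. LHCB1.3 and LHCB1.5 weigh most in the sum. The 5 genes, of which LHCB6 is itself an antenna gene, were picked as the closest of 13912, whereas the members were not picked by this measure. That these 5 lay closer to the sum than 7 of its 9 members is therefore not a result about the members.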

How the data were processed

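Polyadenylated RNA of 12 leaf samples was sequenced from strand-specific libraries on a DNBSEQ platform, per the labels' protocols. The series text gives SOAPnuke 1.5.2 for filtering and HISAT2 2.0.4 for alignment to TAIR10. Bowtie2, RSEM and DESeq2 are named without role or version, per the submitters' processing notes, and the annotation is not given in the sources used here. In the 3 tables that the authors deposited, each mutant leaf class stands against wild type, with estimated counts and mean TPM values per gene, and, per the file headers, their own log2 fold changes with p-values and q-values, which are not used here. The union held 25169 genes, and 9750 values of genes that a table does not list were set to 0. The 18 columns of TPM values per library were not used, so levels between genes rest on the authors' deposited mean TPM per group, not on values per library as planned.

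Here the estimated counts were rounded and fitted in edgeR 4.0.16 (R 4.3.3) with TMM factors, the low-count filter of edgeR, group means over all 12 libraries and the quasi-likelihood test. Calls needed a Benjamini-Hochberg adjusted p under 0.05 over all 19424 genes tested, in 6 comparisons. Sums per type replaced the member rows before the same fit. The standard error is the log2 fold change divided by the root of the F statistic. CPM values are scaled by the TMM factors, and comparisons of levels between genes use the authors' mean TPM. Intervals are not given for counts, since the replicate spread covers them. Shares and ratios were tested by exact two-sided permutation of the libraries. Gene models, coordinates and sequences are from RefSeq TAIR10.1, and the transcript with the lowest accession number represents each gene.

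All 9 genes are named. From each pathway list the called gene of largest rise and of largest fall in each comparison with wild type is named, with CAO, GLK1, GLK2, STN7 and cpSRP43. CCA1, LHY, LHCA5 in white leaves, FAMA, KAT1, CER1, SUC2, SWEET11, XCP1, XCP2, CESA7 and SCR were named after their values were seen. The members and lists were chosen with earlier results of these data known. Alternatives were DESeq2 1.42.0, other scalings, no low-count filter, a fit of the 2 groups compared, and leaving out each library in turn.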

Additional observations from a re-analysis of the deposited data

How the results depend on the processing

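Of 1296 repeated log2 fold changes of members and type sums, 1280 kept their direction and their side of the threshold, 10 lost a call, 2 gained one and 4 uncalled ones changed sign, all 16 in green against wild type. The sign changes were the LHCB1 sum with upper-quartile scaling (-0.036) and LHCB1.2 without wild-type A (0.014), wild-type B (0.020) or green C (0.025), whose values without one library ranged from -0.030 to 0.025. All 120 repeated tests of ratios and shares without one library kept theirs, and the planned repeat with TPM was not run because TPM columns per library were not used. The sum of all 9 genes in green against wild type lost its call with DESeq2 (-0.060, adjusted p = 0.0755) and with only the 2 groups compared (-0.057, adjusted p = 0.106), and without one library it ranged from -0.069 to -0.0043. The LHCB1 sum ranged from 0.0090 to 0.073 without one library and was called higher without green C. With upper-quartile scaling 1 member rather than 2 was called higher in green leaves. The cause of these shifts was not tested.

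Scaling by library totals alone moved the median of all genes by 0.25 in green-white and 0.29 in white leaves over wild type, and the 9 genes by at most 0.29, so all 9 remained called lower there. It called 10320 genes higher and 4436 lower in green-white against wild type (69.9% of calls higher, 46.8% with TMM), 5123 lower in white against wild type (68.4% higher, 49.9% with TMM), 10627 higher and 2653 lower in green-white against green (80.0% higher, 49.7% with TMM) and 11056 higher and 3988 lower in white against green (73.5% higher, 49.98% with TMM). Of 216 repeated counts of pathway genes 19 changed by over 1.5 times.

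No paired analysis was possible because the deposited columns carry letters and the labels carry replicate numbers with nothing to tie them, so the planned replicate block was not run.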
